A study of Mus musculus with 6 samples.

Results

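Poly(A)-binding proteins coat the poly(A) tail of mRNAs, and their own mRNAs carry tails that can be measured in the same libraries. The genes described here were 8 named genes of this machinery: the cytoplasmic poly(A)-binding proteins Pabpc1, Pabpc2, Pabpc4 and Pabpc6, the nuclear Pabpn1, and the PABP-interacting proteins Paip1, Paip2 and Paip2b. They were chosen by gene symbol. Of the 8 genes, 6 had transcripts in the tables analysed here, and Pabpc4 and Paip1 had none. The 6 genes were represented by 12 of 11517 annotated transcripts and by 6 of 7210 genes, with 7928 reads in all. Mouse germ cells were sorted by flow cytometry from the testes of adult C57BL/6J/B6 males into pachytene and diplotene (P/D) spermatocytes, which the sample labels name pachytene, and round spermatids. No genotype or treatment differed between the groups. Each of the 3 samples per cell type was a pool of mRNA from the sorted cells of 3 mice. The pool was read by Nanopore direct RNA sequencing, which threads the native RNA through a pore and times the passage of its tail. The study isolated the germ cell types from the same mice, so the P/D and round spermatid pools share animals, and the tests below treat them as separate. The comparison asked how far these mRNAs, and the tails they carry, differed between late meiosis and the first phase after it.

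PABPC1 binds the tail through RNA recognition motifs and contacts the cap-binding factor eIF4G, and this bridge between the mRNA's ends favours translation and protects the tail. PAIP1 stimulates PABP-dependent translation, whereas PAIP2 and PAIP2B bind PABP, lower its affinity for poly(A) and repress translation. PABPN1 acts in the nucleus, where it stimulates poly(A) polymerase and helps set the length of a new tail. In the testis, mRNAs made in round spermatids are often stored for translation days later, and mice that lack PAIP2 proteins are known to have defective late spermiogenesis.

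A poly(A)-binding protein can also bind its own mRNA, since the 5′ UTR of Pabpc1 holds a well known A-rich tract through which the protein represses its own translation. The windows of 30 bases with the most A in the annotated 5′ UTRs of Pabpc1 and Pabpc6 are shown to set that tract beside the UTR of a paralog, with each A in capitals. The sequences are from the GRCm38 genome and run 5′ to 3′ on the minus strand, chr15:36608840-36608869 for Pabpc1 and chr17:9669688-9669717 for Pabpc6.
Pabpc1 5′ UTR: gAAAAAAcccAAAAAAAAtttAcAAAAAAA
Pabpc6 5′ UTR: gccgccgAcctccgggttcttggcAgttgA
The Pabpc1 window held 22 A in 30 bases and the Pabpc6 window 3. The densest window held 6 A in Pabpc2, 13 in Paip2 and 9 in Paip2b. Over 9286 transcripts with a 5′ UTR of at least 30 bases, the median of this count was 10, and 54 transcripts (0.582%) reached the 22 of Pabpc1.

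Stretches near the 3′ ends of 4 mRNAs are shown because the tails described below are added just downstream. The Pabpc1 and Paip2b windows reach the annotated transcript end, the Pabpc6 window stops 21 bases before it and the Pabpn1 window 35 bases before it. The capitals in the first 3 sequences mark AATAAA, the canonical polyadenylation signal, and in Pabpn1 they mark each A. The windows lie at chr15:36595661-36595690, chr17:9666516-9666545 and chr6:83805401-83805430 on the minus strand and at chr14:54898105-54898134 on the plus strand of GRCm38.
Pabpc1 3′ UTR: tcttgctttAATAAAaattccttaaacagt
Pabpc6 3′ UTR: ctatacAATAAAgctgtttttcacaaatac
Paip2b 3′ UTR: atccaaccaaacAATAAAgctgactgcata
Pabpn1 3′ UTR: AAAAAAAAAAgAAttAAAAAAAAAAAAgAA
The last 60 bases of each main transcript were searched on the transcript's own strand for AATAAA and for ATTAAA, which do not overlap as words. AATAAA was present there in Pabpc1, Pabpc2, Pabpc6, Paip2 and Paip2b, as it was in 61.8% of 11344 transcripts with a sequence, and Pabpn1 held ATTAAA, which was present in 18.6%. The Pabpn1 transcript held an A-rich stretch near its end, with 26 A in the 30 bases shown and 65.0% A over its last 60 bases, against a median of 33.3% over all transcripts. Only 0.264% of transcripts had at least that share. The coding sequences of Pabpc1 and Pabpc6 were identical at 83.5% of 1888 aligned bases, and those of Pabpc1 and Pabpc2 at 83.3% of 1884. No read of the 3 paralogs was assigned to more than 1 of them.

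The samples held 244004 to 474688 reads with a measured tail, and read counts and tails were deposited for the same reads. The P/D samples were sequenced together in 1 multiplexed library and the round spermatid samples in another, so cell type and library cannot be told apart. Transcripts of 7 P/D marker genes made up 0.155% to 0.157% of reads in P/D samples and 0.0414% to 0.0474% in round spermatids. The 6 round spermatid markers went from 0.0123% to 0.0254% up to 0.213% to 0.227%, and the 7 elongating spermatid markers from 0.18% to 0.238% up to 2.26% to 2.74%. Spermatogonial, Sertoli and Leydig cell lists had 0 to 5, 0 to 2 and 1 to 7 reads per sample. Each range came from 1 of 5 genes (Uchl1, Clu and Insl3). The other listed genes, Zbtb16, Kit, Sox9, Wt1, Cyp17a1 and Star among them, stood at 0. A gene without any transcript in the data also counts as 0 here. Of 5 leptotene and zygotene markers, 1 had reads (10 to 42 per sample). The P/D list was higher in P/D spermatocytes and the round spermatid list in round spermatids. The elongating spermatid list was also higher in round spermatids, and elongating spermatids were not sampled here. The study states that round spermatids already make the protamine, transition protein, Smcp and Odf1 mRNAs. The list holds these mRNAs, so its reads do not tell round from elongating spermatids. In every P/D sample the elongating spermatid markers had a larger share of reads than the P/D markers, and the study's own staining found many other cells in the gate from which P/D spermatocytes were taken. The part of this mixture in the differences below was not tested.

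Accumulation, the share of a sample's reads that came from a transcript, was compared first for the cytoplasmic poly(A)-binding proteins. Pabpc1 and Pabpc2 accumulated to similar relative levels in both cell types, and Pabpc6 was lower in round spermatids. All fold changes here are for round spermatids over P/D spermatocytes, and levels are in CPM, read counts brought to a common library size with TMM scaling. In a bulk sample, fewer cells of a type and less RNA per cell cannot be told apart. Across the transcriptome 32.6% of 6005 transcripts tested were higher and 30.8% were lower in round spermatids at an adjusted p of 0.05, with a median log2 fold change of -0.03. Among the members, 5 transcripts could be tested, of which 2 were higher (Pabpn1 and Paip2), 1 was lower (Pabpc6) and 2 did not pass.

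Pabpc1 (ENSMUST00000001809), the main cytoplasmic PABP of somatic and germ cells, lies on chromosome 15 from 36595661 to 36608973 in GRCm38 and has 15 exons. Its accumulation was 2412, 2529 and 2618 CPM in the P/D samples and 2246, 2455 and 2519 CPM in round spermatids. The groups overlapped, with means of 2520 ± 103 and 2407 ± 143 CPM (SD, n = 3 each). The log2 fold change was -0.07 (SE 0.09, edgeR adjusted p = 0.538), with an approximate 95% interval of -0.32 to 0.19.

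Pabpc2 (ENSMUST00000063219), an intronless paralog known for its expression in the testis, lies on chromosome 18 from 39773497 to 39776082. It was at 973, 982 and 942 CPM in P/D spermatocytes and at 1057, 1103 and 1006 CPM in round spermatids. Every round spermatid sample was above every P/D sample, by a small margin. The log2 fold change was 0.13 (SE 0.11, edgeR adjusted p = 0.294), and the interval ran from -0.17 to 0.43. The call depended on the filter: with only transcripts that reached 10 counts in each sample, the scaling moved the transcripts shared with the main fit by a median of 0.20, and Pabpc2 reached 0.32 with an adjusted p of 0.00887, whereas Pabpc1 at 0.13 did not pass (adjusted p = 0.223).

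Pabpc6 (ENSMUST00000057190), a paralog annotated with 1 exon on chromosome 17 from 9666495 to 9669717, was at 462, 756 and 685 CPM in P/D spermatocytes and at 362, 415 and 415 CPM in round spermatids. All P/D samples were above all round spermatid samples, and P/D replicate 1 stood closest to them. The level was 1.60-fold lower in round spermatids, a log2 fold change of -0.68 (SE 0.14, edgeR adjusted p = 7.75e-05), and this value ranged from -0.90 to -0.52 when any 1 sample was left out.

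Pabpn1, the nuclear poly(A)-binding protein, was higher in round spermatids. Its main transcript (ENSMUST00000022808, chromosome 14, 54894148 to 54898169, 7 exons) had 70.4, 52.0 and 40.8 CPM in the P/D samples and 169, 171 and 169 CPM in round spermatids. The 3 round spermatid samples were nearly equal, and all lay above the P/D samples. The rise was 3.13-fold, a log2 fold change of 1.65 (SE 0.25, edgeR adjusted p = 2.75e-07), from 10 to 16 reads per P/D sample and 49 to 73 reads per round spermatid sample. A second Pabpn1 transcript had 7 reads in all and was not tested.

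The repressor Paip2 rose most among the members. Its main transcript (ENSMUST00000041314, chromosome 18, 35598617 to 35617186, 4 exons) was at 66.0, 59.0 and 61.2 CPM in P/D spermatocytes, from 15, 17 and 15 reads, and at 303, 368 and 364 CPM in round spermatids, from 88, 157 and 114 reads. No sample of either group came near the other group. The rise was 5.57-fold, a log2 fold change of 2.48 (SE 0.21, edgeR adjusted p = 1.50e-13). The round spermatid and elongating spermatid marker lists rose in the same samples, and the part that sorting purity had in this value was not tested.

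Of the 5 other Paip2 transcripts, all too sparse for the test, ENSMUST00000235476 had 3, 6 and 4 reads in P/D and 4, 8 and 12 in round spermatid samples. ENSMUST00000236020 had 3, 1 and 2 reads against 2, 13 and 6. ENSMUST00000235400 had 0, 2 and 0 reads against 4, 11 and 3. The last 2 transcripts had 16 and 11 reads in all. The mean CPM of each of the 5 was higher in round spermatids. With the reads of all 6 transcripts summed, Paip2 went from 88.7 ± 6.64 to 412 ± 50.1 CPM (SD, n = 3 each), a 4.67-fold rise (edgeR adjusted p = 4.56e-16).

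Paip2b, the second PAIP2 gene, had few reads: 3, 5 and 5 in P/D and 9, 14 and 13 in round spermatid samples. Its transcript (ENSMUST00000058383, chromosome 6, 83805401 to 83831741, 5 exons) did not pass the count filter and was not tested. The levels were 13.2, 17.3 and 20.4 CPM against 31.0, 32.8 and 41.5 CPM, and the groups did not overlap. Summing reads by gene gave the same 2 higher and 1 lower calls among 5 genes tested, where 33.9% of 4940 genes were higher and 32.6% were lower.

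**Figure D1:**
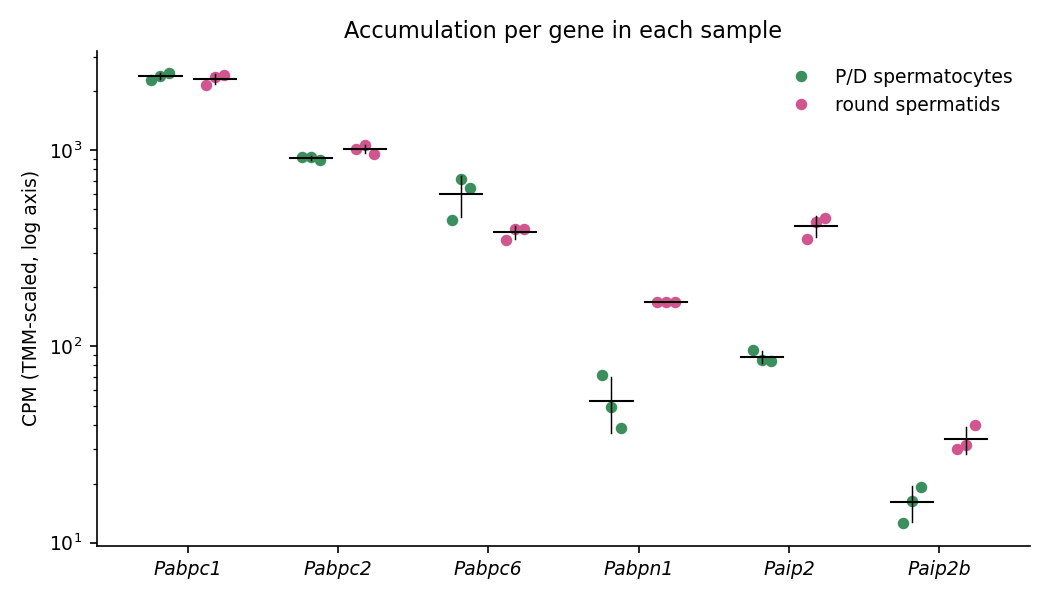
CPM (TMM-scaled, log axis) of each gene in each sample, summed over its transcripts; points are the 3 samples of P/D spermatocytes (green) and round spermatids (pink), horizontal lines are means and vertical lines 1 SD. Pabpc1 and Pabpc2 stayed at similar heights, Pabpc6 dropped, and Pabpn1 and Paip2 rose, Paip2 from 88.7 to 412.

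Levels were also set per kilobase of the main transcript. In P/D spermatocytes the means were 895 CPM per kb for Pabpc1, 373 for Pabpc2, 197 for Pabpc6, 52.8 for Pabpn1, 42.1 for Paip2 and 4.26 for Paip2b. Pabpn1 (39.6 to 68.4 CPM per kb) and Paip2 (39.98 to 44.8) overlapped there, and the other neighbours did not. In round spermatids the means per kb were 854 for Pabpc1, 408 for Pabpc2, 234 for Paip2, 165 for Pabpn1, 123 for Pabpc6 and 8.82 for Paip2b. No neighbours overlapped on that scale. The order in round spermatids depended on the length scaling, and a direct RNA read stands for 1 molecule whatever its length. In CPM of the same transcripts Pabpc6 (362 to 415 across samples) was above Paip2 (303 to 368) in each round spermatid sample and above Pabpn1 (169 to 171). With reads summed per gene, Pabpc6 (348 to 398 CPM) was again above Pabpn1 (168 to 169), but Paip2 (355 to 449) was above Pabpc6 in each round spermatid sample.

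Within each sample, the mix of the cytoplasmic PABP mRNAs shifted away from Pabpc6. Its share of the reads of Pabpc1, Pabpc2 and Pabpc6 was 12%, 17.7% and 16.1% in P/D and 9.87%, 10.4% and 10.5% in round spermatid samples. The Pabpc2 share went from 23.5% ± 1.60 to 27.4% ± 1.70, and the Pabpc1 share from 61.2% ± 1.76 to 62.3% ± 1.41 (SD, n = 3 each). The groups did not overlap for Pabpc6 and Pabpc2 (exact permutation test, two-sided, p = 0.1 each, the smallest that 3 against 3 samples allow), and they did for Pabpc1 (p = 0.5). The log2 ratio of Pabpc2 to Pabpc6 reads rose from 0.64 ± 0.38 to 1.41 ± 0.14, a ratio that no scaling of the libraries can move.

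Summed over the 3 genes, cytoplasmic PABP mRNA was at 3898 ± 204 CPM in P/D spermatocytes and 3705 ± 153 CPM in round spermatids (exact permutation test, two-sided, p = 0.3, n = 3 each). Against that sum, Paip2 stood at 2.63, 2.11 and 2.11 CPM per 100 CPM of PABP mRNA in the P/D samples. In round spermatids the same quantity was 10.1, 11.3 and 11.9. The groups lay far apart beside their spread (2.29 ± 0.299 against 11.1 ± 0.948, exact permutation p = 0.1).

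**Figure D2:**
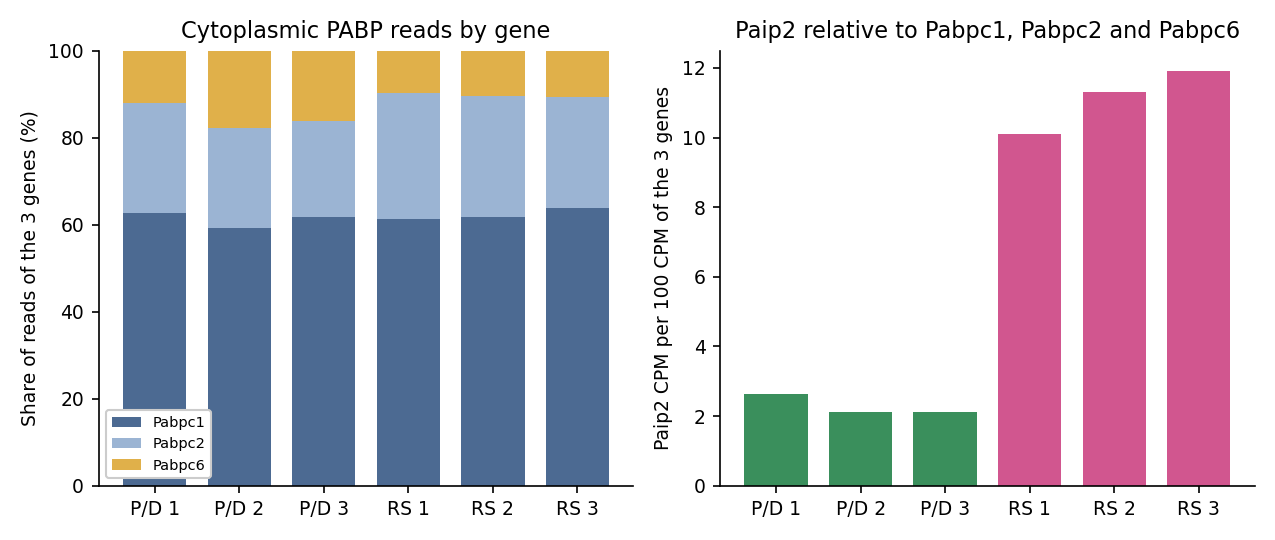
Left, share in percent of the reads of Pabpc1, Pabpc2 and Pabpc6 in each P/D spermatocyte and round spermatid (RS) sample; right, Paip2 CPM per 100 CPM of these 3 genes in the same samples. The Pabpc6 segment was narrower in every round spermatid sample (9.87% to 10.5%) than in any P/D sample (12% to 17.7%), and Paip2 rose from at most 2.63 to at least 10.1.

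The tails of these mRNAs were longer in round spermatids. Of the 6 member transcripts that could be tested, 5 were longer and 0 were shorter, by limma on the mean tail of each sample at an adjusted p of 0.05 (also 0 shorter at an unadjusted p of 0.05 and by the equal-variance test). Longer tails were the rule in these samples: 54.2% of 6990 transcripts were longer and 1.69% were shorter, and the median difference was 37.4 nt. Per gene, 54.9% of 5372 were longer and 2.12% shorter. The median tail over all reads of a sample went from 91.2 to 94.1 nt in P/D to 156 to 160 nt in round spermatids.

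Pabpc1 tails averaged 121.8, 109.6 and 111.4 nt in the P/D samples and 168.3, 167.6 and 171.6 nt in round spermatids. The groups were well apart, and the round spermatid means were closer to each other (114.2 ± 6.60 against 169.2 ± 2.12 nt, SD, n = 3 each). The difference was 54.95 nt (SE 6.01, limma adjusted p = 0.000679).

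Pabpc2 tails averaged 92.5, 97.8 and 93.5 nt in P/D spermatocytes and 149, 143 and 149 nt in round spermatids, a difference of 52.24 nt (SE 5.46, limma adjusted p = 0.000623). Pabpc6 had the shortest tails of the members in both cell types, 89.95, 81.9 and 84.6 nt against 142.4, 142.3 and 141.3 nt, and a difference of 56.56 nt (SE 5.42, limma adjusted p = 0.000535). Pabpc6 sat at percentile 7.68 of all tested transcripts by its P/D tail and at percentile 26.9 by its round spermatid tail, and Pabpc1 at percentiles 48.8 and 69.3.

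Set beside other mRNAs with many reads, a set with a floor but no match in abundance, the lengthening of the 3 paralogs was ordinary. Among 343 transcripts whose reads numbered 100 or more in each sample, a subset defined after the values were known, the median difference was 53.9 nt and 307 were called longer. The differences of Pabpc1, Pabpc2 and Pabpc6 lay at percentiles 51.9, 46.4 and 57.1 of these. By mean tail, Pabpc1 lay at percentile 80.2 of the same set in P/D and 75.2 in round spermatids, so its rank did not rise there. Pabpc2 lay at percentiles 32.1 and 36.7, and Pabpc6 at 13.7 and 29.7.

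Paip2 tails averaged 119.8, 117.3 and 99.99 nt in P/D spermatocytes and 172.7, 164.6 and 169.4 nt in round spermatids. The groups did not overlap, and the difference was 56.55 nt (SE 7.39, limma adjusted p = 0.00120). Over all Paip2 reads the P/D means were 115.7, 116.5 and 115.6 nt, closer together than those of the main transcript alone, and the difference was 52.57 nt (limma adjusted p = 0.000332).

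Pabpn1 already had longer tails than the paralogs in P/D spermatocytes, and its difference was the least of those called. The means were 150.4, 125.6 and 127.3 nt in P/D and 174.6, 162.3 and 173.3 nt in round spermatids. All round spermatid samples were above all P/D samples, with a difference of 35.62 nt (SE 8.81, limma adjusted p = 0.0147). The call rested on 41 P/D reads and was lost without round spermatid replicate 1 (33.35 nt, adjusted p = 0.0511).

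Paip2b carried long tails in both cell types: 200.6, 113.5 and 162.8 nt in P/D, from 3 to 5 reads each, and 186.6, 212.8 and 238.6 nt in round spermatids, from 9 to 14 reads. The groups overlapped and the difference of 53.68 nt did not pass (SE 24.29, limma adjusted p = 0.108), with an interval of -13.8 to 121 nt. Its round spermatid mean lay at percentile 99.2 of all tested transcripts. With the median tail in place of the mean the difference was 65.03 nt (adjusted p = 0.0377), with weights by reads it was 62.98 nt (adjusted p = 0.0133), and without P/D replicate 1 it was 74.5 nt (adjusted p = 0.0309).

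**Figure D3:**
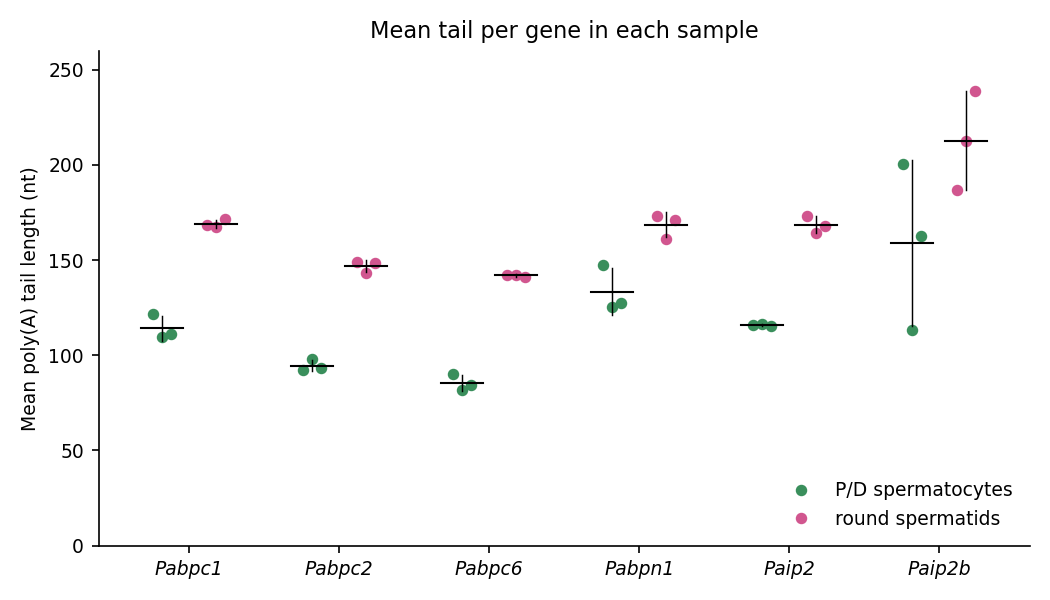
Mean poly(A) tail length in nt over all reads of each gene in each sample; points are the 3 samples of P/D spermatocytes (green) and round spermatids (pink), horizontal lines are means and vertical lines 1 SD. The groups were separate for every gene shown but Paip2b. How many of all genes have separate groups was not counted, and 54.9% of 5372 genes were called longer in round spermatids. Pabpc6 was lowest in both cell types, at 85.5 and 142 nt.

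Read by read, long tails made up a larger share in round spermatids for Pabpc1, Pabpc2, Pabpc6 and Paip2. Tails of 120 to 210 nt made up 38.0%, 33.1% and 34.1% of Pabpc1 reads in P/D and 79.6%, 81.3% and 78.3% in round spermatids. For Paip2 the share went from 35.3% ± 5.27 to 78.9% ± 3.76 (SD, n = 3 each). It was lower for Pabpc2 and Pabpc6 in both cell types, 22.4% ± 0.634 to 64.4% ± 3.6 and 17.1% ± 2.58 to 58.0% ± 6.04. None of these groups overlapped (exact permutation test, two-sided, p = 0.1 each). The same share over all reads of a sample was 28.5% to 30.3% in P/D and 66.4% to 68.3% in round spermatids. So the share rose over all reads as well, and how much of the members' rises went with that was not tested. For Pabpn1 the share was 44.8% ± 7.38 against 56.3% ± 8.01 (exact p = 0.2), and tails of at least 120 nt went from 54.1% ± 4.46 to 79.9% ± 2.51 (exact p = 0.1). For Paip2b it was 44.4% ± 13.9 against 38.1% ± 16.4 (exact p = 0.6).

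Grouped in bins of 15 nt, the mean Pabpc1 profile peaked at 60 to 75 nt in P/D spermatocytes and at 165 to 180 nt in round spermatids. The P/D profile was broad: its fullest bin started at 60 nt in replicate 1, at 45 nt in replicate 2 and at 45 and 60 nt alike in replicate 3. All 3 round spermatid samples had the Pabpc1 peak at 165 to 180 nt. The mean profiles of Pabpc2, Pabpc6 and Paip2 peaked at 150 to 165 nt in round spermatids, but the samples differed. The fullest Pabpc2 bin started at 120 nt in replicate 1, at 135 nt in replicate 2 and at 150 and 165 nt alike in replicate 3. For Pabpc6 it started at 150 nt in replicate 1, at 105, 120 and 135 nt alike in replicate 2 and at 105 nt in replicate 3, so its profile was a broad rise with no shared peak. The fullest Paip2 bin started at 165, 150 and 150 nt. In P/D spermatocytes the mean profiles of Pabpc2 and Pabpc6 peaked at 60 to 75 nt and 45 to 60 nt, and that of Paip2, from 71 reads, had no clear peak. Tails below 30 nt were 2 of 105, 17 of 218 and 4 of 168 Pabpc6 reads in the P/D samples, 4.68% in all and 2.2% without replicate 2, and 0 of 412 in round spermatids, which allows a share of up to 0.728%. For Pabpc1 they were 55 of 1919 reads (2.87%, or 2.35% without P/D replicate 2) and 4 of 2489 (0.161%). These shares and limits cover counting error only.

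**Figure D4:**
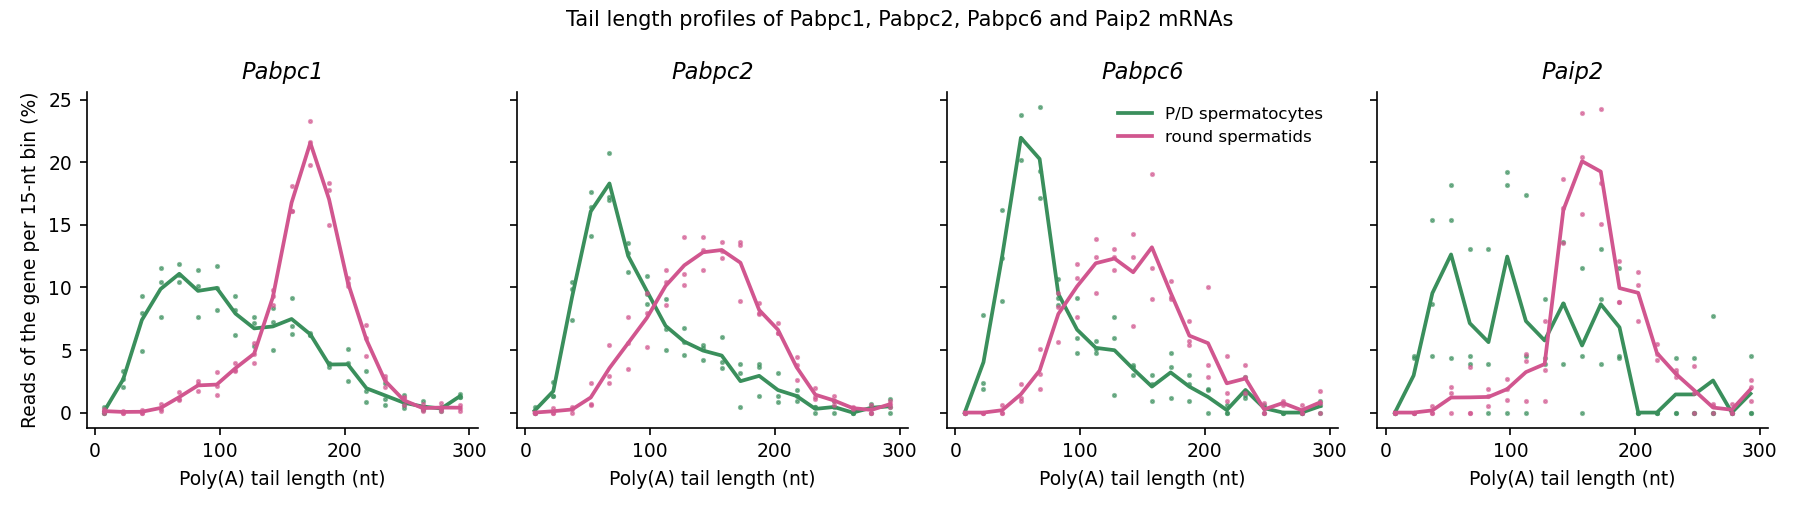
Share in percent of a gene's reads in each 15-nt bin of poly(A) tail length, with tails of 300 nt and more in the last bin, for Pabpc1, Pabpc2, Pabpc6 and Paip2; lines are the means of 3 samples of P/D spermatocytes (green) and round spermatids (pink), and dots are the samples. The round spermatid peak of Pabpc1 at 165 to 180 nt holds 21.6% of its reads, whereas that of Pabpc2 at 150 to 165 nt holds 13.0%.

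The width between the lower and upper quartile of the tails fell strongly for 2 of the members, in a measure added after the tails were seen. Pabpc1 widths were 86.4, 91.2 and 89.4 nt in P/D and 39.6, 37.9 and 40.4 nt in round spermatids. Paip2 widths were 89.4, 102 and 81.8 nt against 34.9, 44.2 and 41.3 nt. For both genes the groups were far apart (exact permutation test, two-sided, p = 0.1 each). Pabpc2 stayed at 63.1 ± 2.76 against 60.8 ± 4.33 nt (exact p = 0.4), Pabpc6 at 55.6 ± 8.98 against 60.2 ± 5.67 nt (exact p = 0.5) and Pabpn1 at 79.9 ± 7.46 against 79.4 ± 10.9 nt (exact p = 1.0; SD, n = 3 each). The groups overlapped for these 3 genes, and whether the genes differ in their narrowing was not tested. The Paip2 widths in P/D rest on 23, 26 and 22 reads. Widths were taken for the members only, so how common such narrowing is among all transcripts is not known here.

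**Figure D5:**
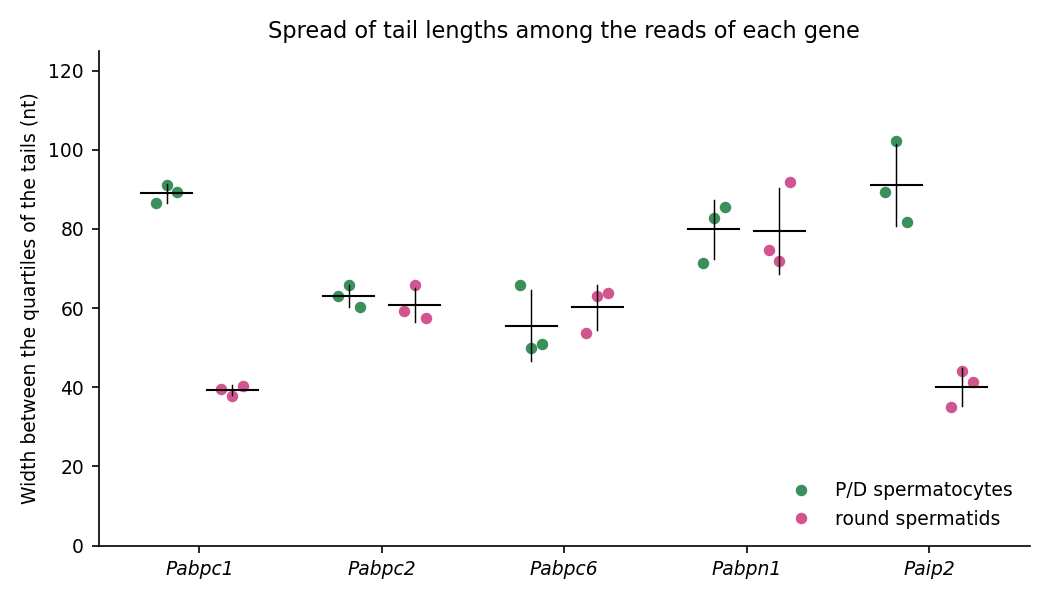
Width in nt between the quartiles of the tail lengths of a gene's reads in each sample; points are the 3 samples of P/D spermatocytes (green) and round spermatids (pink), horizontal lines are means and vertical lines 1 SD. Pabpc1 and Paip2 fell from about 89.0 and 91.1 nt to 39.3 and 40.1 nt, and the other 3 genes overlapped between cell types.

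Pabpc6 had the shortest mean tail and Pabpc2 the next shortest among 5 genes in every sample, with Paip2b left out. The other 3, Pabpc1, Pabpn1 and Paip2, changed places between samples. Within samples, Pabpc1 tails exceeded Pabpc2 tails by 21 ± 6.08 nt and Pabpc6 tails by 28.0 ± 2.57 nt (SD over 6 samples), each in 6 of 6 samples. Pabpc2 exceeded Pabpc6 by 6.99 ± 5.37 nt, also in 6 of 6, though by only 0.695 nt in round spermatid replicate 2. Paip2 tails exceeded those of Pabpc2 by 21.5 nt and those of Pabpc6 by 28.5 nt on average, again in 6 of 6 samples. Pabpc1 and Paip2 had a gap of -0.498 ± 5.47 nt, positive in 3 samples and negative in 3. These gaps are given without a p, since the samples of the cell types share mice and are not 6 independent units.

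The gap in mean tail between Pabpn1 and Pabpc1 was smaller in the round spermatid samples than in the P/D samples. Pabpn1 tails exceeded those of Pabpc1 by 25.8, 16.0 and 15.9 nt in the P/D samples. In round spermatids the gap, as Pabpc1 minus Pabpn1, was -4.87, 6.63 and 0.266 nt. The gaps of the 2 groups, 19.9 nt apart on average, did not overlap (exact permutation test, two-sided, p = 0.1). The Pabpn1 means in P/D rest on 17, 15 and 10 reads, with SEs over reads of 15.3, 13.8 and 18.1 nt. These SEs are about as large as the change. The gap of Pabpc1 to Pabpc6 was 28.8 ± 2.69 nt in P/D and 27.2 ± 2.70 nt in round spermatids (exact p = 0.5).

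The proteins that work with PABP were examined in 4 lists of 34 genes, of which 21 genes had 69 transcripts. Over all lists, 4 of 39 transcripts tested were higher in round spermatids, 11 were lower and 24 did not pass, with a median log2 fold change of -0.12. Of 44 tested for tails, 28 were longer, 0 were shorter and 16 did not pass, with a median difference of 40.3 nt. There were also 0 shorter at an unadjusted p of 0.05 by limma and by the equal-variance test. These are to be read against 32.6% higher, 30.8% lower, 54.2% longer and 1.69% shorter among all transcripts.

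Among other poly(A)-binding proteins, 1 of 5 genes had transcripts, Zc3h14, which encodes a zinc finger protein that binds poly(A) RNA. Of its 3 transcripts tested for accumulation, 1 was higher. ENSMUST00000021399 had 5, 4 and 3 reads in P/D and 31, 39 and 38 in round spermatid samples, a log2 fold change of 2.71 (SE 0.37, edgeR adjusted p = 2.72e-08). The most abundant one, ENSMUST00000110105, went from 372 ± 22.0 to 297 ± 35.3 CPM and did not pass (adjusted p = 0.0665), so the rise was seen for 1 isoform. Of 3 tested for tails, 2 were longer.

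The cap-binding complex list holds eIF4E, which binds the cap, the scaffold eIF4G that PABP contacts, the helicase eIF4A and its helpers eIF4B and eIF4H. Of 11 transcripts tested, 2 were higher, 3 were lower and 6 did not pass. Eif4b had 6, 9 and 7 reads in P/D and 22, 37 and 37 in round spermatid samples (log2 fold change 1.68, SE 0.33, edgeR adjusted p = 2.54e-05). The helicase genes went the other way: Eif4a2 from 31, 33 and 41 reads to 13, 16 and 2 (log2 fold change -2.19, adjusted p = 1.57e-07) and Eif4a1 from 30, 31 and 42 reads to 19, 19 and 16 (-1.36, adjusted p = 2.07e-05). The tails of these Eif4a2 and Eif4a1 transcripts differed by -5.75 and 1.23 nt (limma adjusted p = 0.643 and 0.942), while 6 of 12 transcripts of the list were longer.

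Proteins with a PAM2 motif bind the C-terminal MLLE domain of PABPC1, as PAIP1 and PAIP2 also do. Of 11 transcripts tested from 7 genes with transcripts, 0 were higher, 1 was lower and 10 did not pass (0 higher also at an unadjusted p of 0.05, and 0 called either way by DESeq2). The transcript called was a transcript of Gspt1, a translation termination factor (ENSMUST00000167571, log2 fold change -0.79, edgeR adjusted p = 0.0460), chosen for mention after its value was seen. Tails were longer in 7 of 12, of which 5 belonged to Mkrn1, which encodes a ubiquitin ligase.

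The germ cell mRNP list holds Y-box proteins, which package stored mRNAs, and other RNA-binding proteins. Of 14 transcripts tested, 1 was higher, 7 were lower and 6 did not pass. Boll, a DAZ family gene, went from 26, 24 and 35 reads to 6, 14 and 6 for ENSMUST00000173983 (log2 fold change -2.14, SE 0.33, edgeR adjusted p = 2.70e-07). Dazap1, which encodes a DAZ-associated protein, went from 34, 40 and 44 reads to 20, 13 and 8 for ENSMUST00000105362 (-1.95, adjusted p = 1.21e-07). Tails were longer in 13 of 17 transcripts. This Boll transcript was at 171.8 ± 16.9 nt in P/D and 158.5 ± 13.7 nt in round spermatids (limma adjusted p = 0.360), and with the median tail it was called shorter, by -50.7 nt (adjusted p = 0.0166). A second Boll transcript, ENSMUST00000114423, went from 95.2 ± 12.2 to 173 ± 10.3 nt (adjusted p = 0.000795), with 3 to 11 reads in P/D and 5 to 13 in round spermatid samples, too few for the accumulation test.

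The transcripts most like Pabpc1 were found from 12 values, the log2 CPM centred on its own mean and the mean tail in each of the 6 samples, each kind divided by its SD, over 1827 transcripts whose reads numbered 20 or more in each sample. The nearest was Clec2m, with a root mean square difference of 0.196 against a median of 0.721 over all. Svbp (0.207) and Ropn1l (0.207) followed. Clec2m tails averaged 118.9, 117.5 and 115.8 nt in P/D and 172.7, 173.1 and 175.0 nt in round spermatids, and its log2 fold change was -0.02 (edgeR adjusted p = 0.907).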

How the data were processed

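RNA of 3 pools per cell type, each from 3 mice, was read by Nanopore direct RNA sequencing. The raw counts per GENCODE contig were deposited by the authors together with a tail length in nt for each read, estimated by Nanopolish from reads that passed its quality flag. Reads had been demultiplexed and aligned to transcripts with minimap2 (2.20-r1061 per the labels' processing notes; the paper's methods name another version). The labels do not say more on how pools were made, so p-values measure the spread between these pools. Of 12114 contigs, 597 repeat contigs were left out of tests, and 4979 of 1963589 reads were listed on several contigs. Counts were tested with edgeR 4.0.16 (TMM, filterByExpr, quasi-likelihood), where SE is the log2 fold change over the root of F. The mean tails per sample were tested with limma 3.58.1 where at least 10 reads were present in 2 replicates of a cell type and a mean in 2 of each. P-values were adjusted by Benjamini-Hochberg over all transcripts or genes tested. Approximate 95% intervals use the SE with 4 degrees of freedom. Fits were tested on simulated data. Sequences and coordinates came from GRCm38 with GENCODE vM21 (11344 of the transcripts), whereas the study used vM17. Values in every sample were given for member transcripts with at least 20 reads. From each partner list, the text names the 2 highest and 2 lowest called fold changes that have 20 or more reads in each sample of the higher cell type, and any tail called shorter. The members and lists were chosen with earlier results of these data known. Alternatives were DESeq2 1.42.0, other filters and tail summaries, reads on 1 contig, reads pooled per gene, a replicate block and leaving out each sample.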

Additional observations from a re-analysis of the deposited data

How the results depend on the processing

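The calls for Pabpc6, Pabpn1 and Paip2 accumulation, and for the longer tails of Pabpc1, Pabpc2, Pabpc6 and Paip2, kept their direction and side of the threshold under every alternative that tested them. Pabpc1 accumulation was not called under any, and its log2 fold change reached 0.13 on the positive side. Pabpc2 was called with the stricter count filter alone. Member transcripts called higher numbered 4 with no filter on counts, where the sparse Paip2 transcripts ENSMUST00000235400 (log2 fold change 2.5) and ENSMUST00000236666 (2.16) joined, and those called longer numbered 3 with at least 20 reads in every sample, which leaves fewer transcripts to test. With no filter on counts, 3404 transcripts of all and 8 of the partner lists were higher. With 10 or more counts required in each sample, 768 of all and 1 of the partner lists were higher and 725 and 5 were lower, fewer being tested. With at least 20 reads in every sample, 1592 transcripts were longer and 45 shorter, and 12 of the partner lists were longer. In the partner lists, 1 transcript (Boll) was called shorter with the median tail, and 1 (Boll) with tails of 10 to 300 nt only. Without 1 sample, 4 to 7 partner transcripts were higher (7 without P/D replicate 3), 0 to 1 were shorter (Gspt1, without P/D replicate 2), and 66 to 141 of all were shorter (66 without round spermatid replicate 2 and 78 without replicate 1). The Paip2b tail difference per gene was 65.03 nt with the median tail, where it passed, and 30.95 to 74.5 nt without 1 sample, passing only without P/D replicate 1. Across bounds, the rise in the share of reads with long tails was 24.9 percentage points for Pabpc1, 31.9 for Pabpc2, 32.6 for Pabpc6 and 30.9 for Paip2 at 120 to 180 nt, and 49.0, 46.3, 25.8 and 15.4 points for Pabpc1, Pabpc2, Pabpn1 and Paip2b at 120 nt or more. The cause of these moves was not tested.

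Both cell types came from shared mice, but the sources used here do not say that equal replicate numbers mark pools of the same mice. Deviations of same-numbered samples from their group means correlated at -0.03, 0.33 and 0.18 for log2 CPM and at 0.02, 0.14 and 0.01 for tails over 773 transcripts. Samples with different numbers correlated at -0.32 to 0.19 for log2 CPM and at -0.10 to 0.07 for tails. Deviations from a mean of 3 samples depend on each other, so these values do not decide the pairing. For want of a label, the numbers were not used to pair the samples. With a replicate block, 2 member transcripts were higher, 1 was lower and 5 had longer tails, as without it, and 1979 transcripts were higher, 1871 lower, 3577 longer and 92 shorter. Depth limits Paip2b, Pabpn1 in P/D spermatocytes and the minor Paip2 transcripts most.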
